A study of Sus scrofa with 7 samples.

Results

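The genes described here encode the collagens other than type IV, the enzymes that modify and crosslink collagen, and the metalloproteinases that cut the matrix together with their inhibitors. They were chosen by gene name: every row of the deposited tables named COL with a chain number, MMP, TIMP, ADAMTS, LOX, LOXL, PLOD or P4HA was taken, and rows beginning with COL4A were left out. This gave 76 rows, with 75 distinct names because COL1A2 is listed on chromosome 9 and again on an unplaced scaffold, out of 29510 rows in all. Of the 76, 68 had more than 3 counts in at least 1 library, 8 did not, and 3 of those 8 (MMP3, MMP8 and MMP27) had no count in any library.

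A collagen molecule is a triple helix of α chains. Prolyl hydroxylases (P4HA) and lysyl hydroxylases (PLOD) act on the chains before the helix leaves the endoplasmic reticulum, ADAMTS N-proteinases trim the secreted fibrillar procollagens, and lysyl oxidases (LOX, LOXL) start the crosslinks between assembled molecules. Matrix metalloproteinases (MMP) and the other ADAMTS enzymes cut the finished matrix, and TIMPs inhibit them. The extra-embryonic endoderm of the blastocyst is known for laying down basement membrane, a matrix of type IV collagen and laminin to which collagen XVIII also belongs, whereas banded fibrils of collagens I, III and V are typical of mesenchyme and those of collagens II and XI of cartilage and notochord.

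RNA was sequenced from 3 porcine extra-embryonic endoderm (pXEN) cell lines at passages 26, 26 and 23, 2 naïve-like embryonic stem cell (nESC) lines at passages 21 and 22, and 2 primed embryonic stem cell (pESC) lines, both at passage 20, with 1 library per line. All are labelled as derived from the inner cell mass, and the pESCs as converted from naïve-like ESCs. The pXEN lines came from parthenogenetic blastocysts and grew on mouse embryonic fibroblasts with LIF, CHIR99021, (S)-(+)-dimethindene maleate, minocycline, Y27632, serum and serum replacement. The nESCs grew on mouse embryonic fibroblasts with FGF, LIF, PD0325901, CHIR99021, SB431542 and doxycycline, and the pESCs on STO cells with activin A, bFGF, EGF and LIF. Cell type and medium therefore cannot be told apart in any comparison, nor the feeder where pESCs enter. Each line counts as 1 sample, and p values measure the spread between these lines.

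The counts on genes summed to between 10408164 and 12995720 reads in a library, so that 3 counts, the floor of detection used here, equal 0.231 to 0.288 CPM (counts scaled to the library total), counting error only. The pXEN label was checked on markers of extra-embryonic endoderm. GATA4 and SOX17 had at least 4436 and 6364 counts in each pXEN line and at most 2 and 21 counts in any ESC line. HNF4A and FOXA2 had at least 11514 and 2069 counts in each pXEN line and at most 13 and 3 in any ESC line. GATA6 had at least 1735 counts in each pXEN line but also 313 to 450 in each ESC line. SOX7 had at most 3 counts in any library and did not mark the pXEN lines. The ESC labels were checked on pluripotency markers, which did not all follow them. SOX2 had 1633 and 1940 counts in the nESC lines, 2452 and 2729 in the pESC lines and at most 30 in a pXEN line, while POU5F1 had at most 5 counts in any library. NANOG was instead higher in the pXEN lines, at 177, 60 and 166 counts, than in the nESC lines, at 0 and 2, and the pESC lines, at 21 and 22. The cell types are named here as labelled. pXEN line 2 stood apart from lines 1 and 3. It had 38 counts on chromosome Y genes against 1 and 3, and 30 counts of SOX2 against 0 and 0. Chromosome Y genes had 11 and 4 counts in the nESC lines and 0 and 1 in the pESC lines. Of the fibroblast markers, line 2 had 60 counts of LUM against 1 and 8 and 24 counts of DCN against 1 and 6. The 12 rows of the fibroblast list summed to 35.3 CPM in line 2, 21.6 and 27.1 CPM in lines 1 and 3, 328 and 390 CPM in the nESC lines and 196 and 204 CPM in the pESC lines, and CDH11 supplied most of it in every library. Without CDH11 the list summed to 12.9 CPM in line 2, 4.13 and 4.56 CPM in lines 1 and 3, 17.5 and 20.7 CPM in the nESC lines and 42.2 and 73.3 CPM in the pESC lines. Of the 12 rows, 7 were above 3 counts in line 2, 4 and 5 in lines 1 and 3, 5 and 7 in the nESC lines and 5 and 8 in the pESC lines. DPT was at 0 counts in every library, and in line 2 the rows of PRRX1 were at 2 and 0 counts. Of the 7 markers tested, 1 was called higher and 4 lower in pXEN cells than in nESCs, beside 28.3% and 26.2% of all genes tested. The part these reads played in the collagen values was not tested, and line 2 is given apart for the members.

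The 76 genes took 0.633%, 0.511% and 0.621% of the counts of pXEN lines 1, 2 and 3, 0.102% and 0.118% of those of the nESC lines, and 0.311% and 0.313% of those of the pESC lines. The cell types did not overlap in this share. COL18A1 was the member with the most counts in every pXEN line (32.0%, 21.1% and 30.0% of the members' counts), MMP2 in both nESC lines (26.8% and 33.3%) and LOXL1 in both pESC lines (14.9% and 15.3%). In FPKM, which scales counts by gene length, 38 to 44 members exceeded 1 FPKM in a pXEN line, 27 and 29 in the nESC lines, and 46 and 44 in the pESC lines. The nESCs thus had the fewest members at that level. These are bulk libraries, in which fewer cells of a type and less RNA per cell cannot be told apart.

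Differences between cell types were tested on counts by the quasi-likelihood method of edgeR, p values were adjusted after Benjamini and Hochberg over all 17447 genes that passed the filter on low counts, and a gene was called at an adjusted p below 0.05. Of the members, 62 passed the filter and 14 did not, among them 8 of the 12 secreted MMPs. In pXEN cells against nESCs, 39 members were called higher and 9 lower, where 28.3% and 26.2% of all genes tested were called in those directions. The members' median log2 fold change was 1.83, against 0.00 over all genes tested. In pXEN cells against pESCs, 23 members were called higher and 22 lower, beside 23.9% and 24.4% of all genes, with a median of −0.14 against −0.01. In pESCs against nESCs, 34 members were called higher and 6 lower, beside 19.0% and 13.3% of all genes, with a median of 2.30, or 2.22 with genes at 0 in a group set to their bounds, against 0.01. The comparisons share cell lines, so their counts are not independent of each other.

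**Figure D1:**
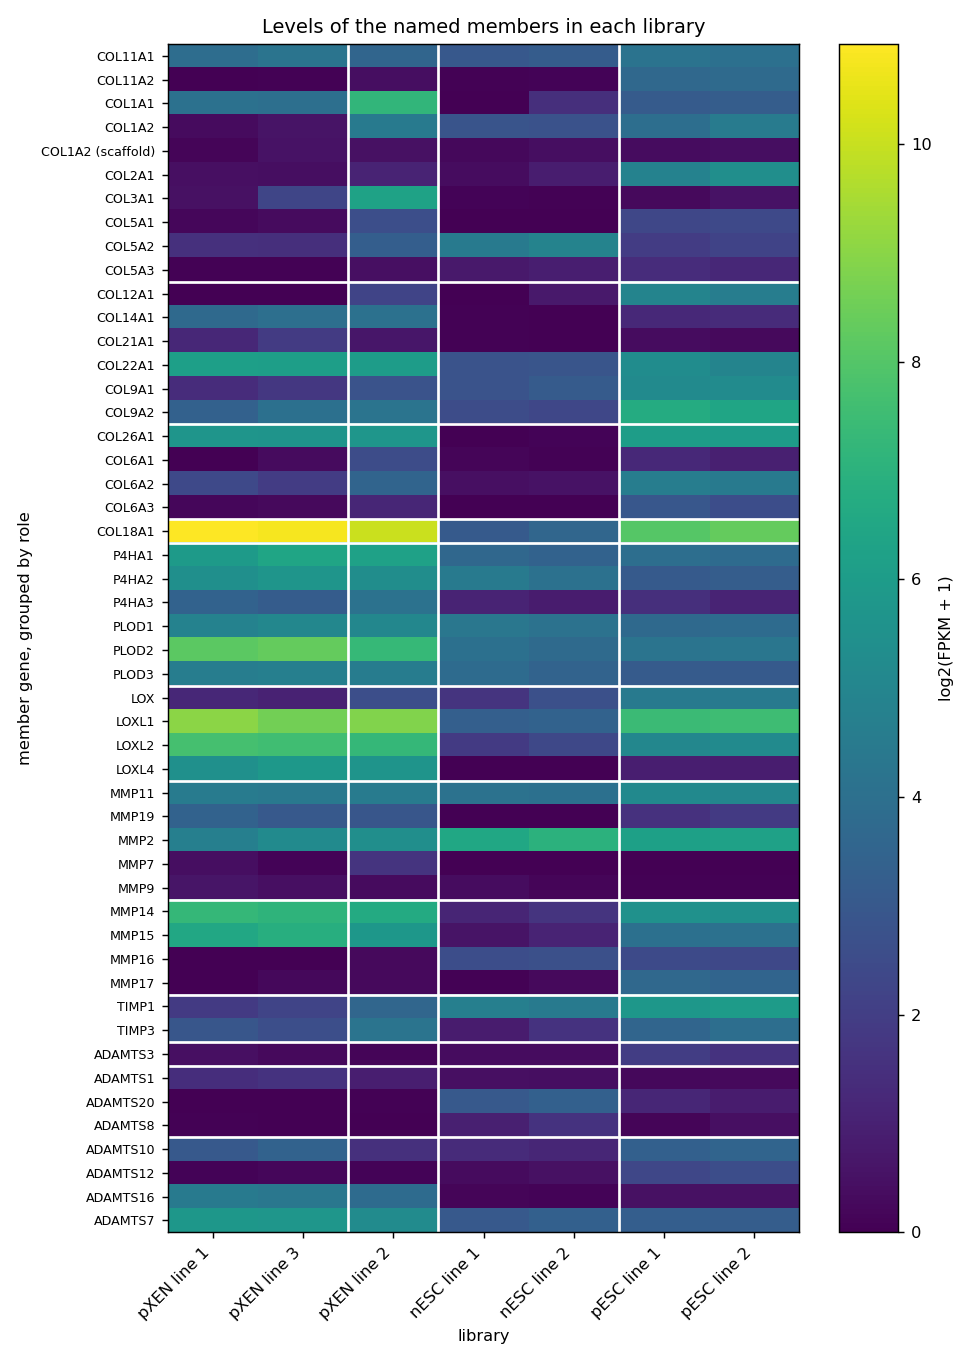
Heat map of log2(FPKM + 1) for 50 of the members (rows, grouped by role from fibrillar collagens at the top to ADAMTS enzymes at the bottom) in each of the 7 libraries (columns, with pXEN line 2 in a column apart from lines 1 and 3). COL18A1, LOXL1 and PLOD2 are brightest in the pXEN columns, MMP2 in the nESC columns, and the nESC columns are dark for most collagens.

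The fibrillar collagens split by line rather than by cell type alone. Of the 10 rows, 4 were called higher and 2 lower in pXEN cells than in nESCs, beside 28.3% and 26.2% of all genes. Against pESCs, 1 was higher and 3 lower in pXEN cells, beside 23.9% and 24.4%. In pESCs against nESCs, 4 were higher and 1 lower, beside 19.0% and 13.3%. Summed over the 10 rows, they gave 91.9, 593 and 129 CPM in pXEN lines 1, 2 and 3, 186 and 229 CPM in the nESC lines and 425 and 507 CPM in the pESC lines. Line 2 was thus the highest of all 7 libraries, while lines 1 and 3 were the lowest. COL3A1, the single chain of collagen III, had 20, 4251 and 203 counts in the pXEN lines, 4 and 3 in the nESC lines and 12 and 29 in the pESC lines. Its count in line 2 was 34.2 times the mean of lines 1 and 3 after scaling to library totals, and line 1 lay between the 2 pESC lines. It was called higher in pXEN cells with all lines (log2 fold change 8.74, SE 2.64, edgeR adjusted p = 0.0232 against nESCs, and 6.39, SE 2.12, edgeR adjusted p = 0.0378 against pESCs) and without line 2 (5.07, edgeR adjusted p = 0.00382, and 2.72, edgeR adjusted p = 0.0281), with a much smaller difference. The calls with all lines were lost under limma and without either nESC line (edgeR adjusted p = 0.125 and 0.122 against nESCs), and those against pESCs also without either pESC line (0.183 and 0.157) and in the fit of those groups alone (0.063).

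Collagen I is built from the chains of COL1A1 and COL1A2, and these did not follow each other. COL1A2 (chromosome 9, 81357192 to 81393120, build Sscrofa10.2) had 13, 1237 and 27 counts in the pXEN lines, 381 and 342 in the nESC lines and 939 and 1520 in the pESC lines. Lines 1 and 3 were far below every ESC line, and line 2 lay among the pESC lines. With all lines COL1A2 was not called in pXEN cells against either ESC type (log2 fold change 0.30, SE 1.37, and −1.31, SE 1.31). Without line 2 it was lower in pXEN cells than in nESCs (log2 fold change −3.99, edgeR adjusted p = 9.25e-06) and than in pESCs (−5.60, edgeR adjusted p = 1.61e-06). COL1A1, in contrast, had 39, 407 and 40 counts in the pXEN lines, 0 and 5 in the nESC lines and 24 and 28 in the pESC lines. Even lines 1 and 3 were above every ESC line, and COL1A1 was called higher than in nESCs with line 2 (log2 fold change 6.02, edgeR adjusted p = 0.0106) and without it (4.10, edgeR adjusted p = 0.00209), lost that call without nESC line 1 (5.03, edgeR adjusted p = 0.0768), and was not called against pESCs (2.86, SE 1.13, edgeR adjusted p = 0.0693). The row named COL1A1 covers only 246 bases, and a second row for the same protein chain, with 494 bases and no gene name, had 23, 334 and 46 counts in the pXEN lines, 0 and 1 in the nESC lines and 24 and 15 in the pESC lines. The COL1A2 row on the scaffold had at most 18 counts in any library and was called in no comparison.

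Collagen V regulates the width of collagen I fibrils, and its chains differed from each other. COL5A1 had 9, 343 and 15 counts in the pXEN lines, 0 and 1 in the nESC lines and 295 and 337 in the pESC lines. It was high in both pESC lines and in pXEN line 2, which exceeded the pESCs by a small margin. Against nESCs it was called higher in pXEN cells with all lines (edgeR adjusted p = 0.0271), where the ratio from 1 count in the nESCs was 236-fold with a 95% counting interval from 42.1 to 9337. The call was lost without nESC line 1 (edgeR adjusted p = 0.144), without nESC line 2 (0.119) and under limma (0.0884 and 0.24). Without line 2 that ratio was 24.3-fold with an interval from 3.97 to 1000. COL5A2 was instead the fibrillar collagen with the most counts in nESCs, at 1166 and 1477 counts, against 79, 434 and 85 in the pXEN lines and 158 and 212 in the pESC lines. The nESCs did not overlap with the other cell types, and COL5A2 was lower in pXEN cells than in nESCs (log2 fold change −2.63, SE 0.61, edgeR adjusted p = 0.00741) and lower in pESCs than in nESCs (−2.99, SE 0.72, edgeR adjusted p = 0.0157). The latter call was lost without nESC line 2 (edgeR adjusted p = 0.0661), pESC line 1 (0.112) or pESC line 2 (0.0905). COL5A2 lies 17106 bases from COL3A1 on chromosome 15, on the opposite strand, and COL3A1 had at most 4 counts in either nESC line. COL5A3, another collagen V chain, had 2, 22 and 3 counts in the pXEN lines, 44 and 55 in the nESC lines and 110 and 93 in the pESC lines, and was called lower in pXEN cells than in pESCs (log2 fold change −3.23, edgeR adjusted p = 0.00759) and, close to the threshold, than in nESCs (−2.34, edgeR adjusted p = 0.0282). The call against nESCs was lost without any 1 of the lines other than pXEN line 2 (edgeR adjusted p from 0.0516 to 0.114) and held without that line (0.000103).

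**Figure D2:**
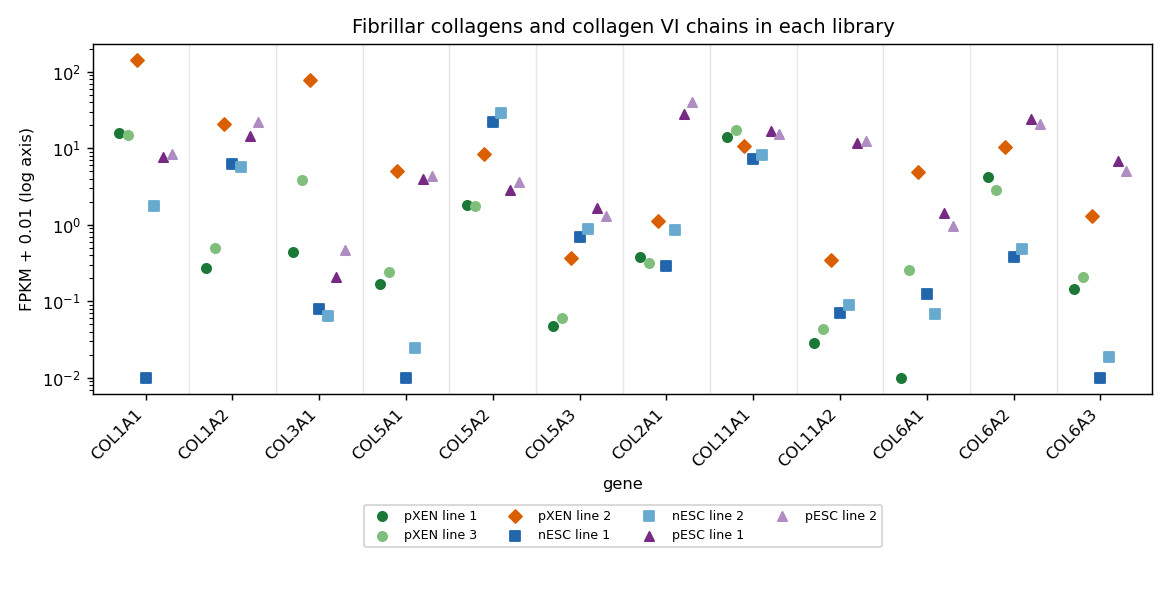
FPKM + 0.01 on a log axis for 9 fibrillar collagen genes and the 3 collagen VI chains, with 1 point per library and points at 0.01 for a value of 0 (green circles, pXEN lines 1 and 3; orange diamonds, pXEN line 2; blue squares, nESC; purple triangles, pESC). Line 2 is far above lines 1 and 3 for COL1A1, COL1A2, COL3A1 and COL5A1, COL5A2 is highest in nESCs, and COL2A1 and COL11A2 are highest in pESCs.

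Of the collagens of cartilage-type fibrils, COL2A1 and COL11A2 were highest in the pESCs, while COL11A1 overlapped between pESCs and pXEN cells. COL2A1, whose product forms collagen II, had 15, 53 and 14 counts in the pXEN lines, 14 and 41 in the nESC lines and 1453 and 2262 in the pESC lines. COL11A2, a chain of the collagen XI that copolymerizes with it, had 1, 21 and 2 counts in the pXEN lines, 4 and 5 in the nESC lines and 823 and 924 in the pESC lines. For both genes the pESC lines were clear of every other library, while pXEN lines and nESC lines overlapped. COL2A1 was higher in pESCs than in nESCs by a log2 fold change of 5.91 (SE 0.62, edgeR adjusted p = 0.00037), and COL11A2 by 7.41 (SE 0.79, edgeR adjusted p = 0.000391). Both were called lower in pXEN cells than in pESCs, with log2 fold changes of −5.80 and −6.48, or −6.65 and −8.75 without line 2. COL11A1, the partner chain of COL11A2, was present everywhere, with 775, 699 and 1070 counts in the pXEN lines, 487 and 531 in the nESC lines and 1179 and 1164 in the pESC lines. It was lowest in nESCs, and the difference between pXEN cells and pESCs was −0.18 on the log2 scale (SE 0.18, edgeR adjusted p = 0.452). COL9A1 and COL9A2 encode chains of collagen IX, which decorates collagen II fibrils, and both were highest in pESCs as well. COL9A2 read 9.61, 17.4 and 15.3 FPKM in the pXEN lines, 4.89 and 4.06 FPKM in the nESC lines and 105 and 85.6 FPKM in the pESC lines, and was higher in pESCs than in nESCs by 4.40 (SE 0.30, edgeR adjusted p = 4.83e-05).

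Of the 6 fibril-associated collagens tested, 3 were called higher and 3 lower in pXEN cells than in pESCs, beside 23.9% and 24.4% of all genes. The 3 called higher include the row named COL22A1, whose identity is uncertain, as given below. COL14A1 was called higher in pXEN cells than in either ESC type. It had 781, 1173 and 1043 counts in the pXEN lines, 4 and 0 in the nESC lines and 113 and 130 in the pESC lines. The 3 cell types were in separate ranges, line 2 was the highest pXEN line, and the log2 fold change was 9.01 against nESCs (SE 0.44, edgeR adjusted p = 3.05e-06) and 3.31 against pESCs (SE 0.27, edgeR adjusted p = 4.87e-05). COL12A1, a relative of COL14A1, had the reverse pattern between pXEN cells and pESCs, with 0, 16 and 0 counts in the pXEN lines, 0 and 3 in the nESC lines and 139 and 118 in the pESC lines, on a row of 372 bases. A longer unnamed row for the same chain had 3, 137 and 24 counts in the pXEN lines, 29 and 18 in the nESC lines and 794 and 722 in the pESC lines. COL21A1 was called higher in pXEN cells than in either ESC type at 22, 11 and 51 counts in the pXEN lines. The row named COL22A1 had 530, 570 and 572 counts in the pXEN lines, 55 and 56 in the nESC lines and 376 and 306 in the pESC lines. It lies on chromosome X next to a row that the reference table names COL4A5, while that table gives the symbol COL22A1 to a row on chromosome 4 with at most 22 counts in any library, so its identity is uncertain.

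Of the 7 beaded, network and anchoring collagens tested, edgeR called 6 higher in pXEN cells than in nESCs, beside 28.3% of all genes. It called 6 higher in pESCs than in nESCs, beside 19.0%. Collagen VI forms beaded filaments from the chains of COL6A1, COL6A2 and COL6A3. COL6A3 had 13, 144 and 21 counts in the pXEN lines, 0 and 1 in the nESC lines and 849 and 668 in the pESC lines, and COL6A2 had 130, 369 and 98, 14 and 17, and 938 and 869 counts in the same order. For both, pESCs were highest, nESCs lowest and line 2 the highest of the pXEN lines. Against pESCs, pXEN cells were lower by 3.44 on the log2 scale for COL6A3 (SE 0.75, edgeR adjusted p = 0.00633) and by 1.93 for COL6A2 (SE 0.45, edgeR adjusted p = 0.00837). Without line 2 these log2 fold changes were −5.15 and −2.65. COL6A1 was not called in any comparison with all lines, at 0, 82 and 4 counts in the pXEN lines, 2 and 1 in the nESC lines and 26 and 19 in the pESC lines. COL26A1 separated the nESCs from both other cell types, with 537, 650 and 581 counts in the pXEN lines, 0 and 1 in the nESC lines and 900 and 943 in the pESC lines. The ratio of pXEN cells to nESCs was 1136-fold, with a counting interval from 204 to 4.49e+04, and pXEN cells and pESCs differed by −0.36 on the log2 scale (SE 0.14, edgeR adjusted p = 0.0654). COL7A1, the anchoring fibril collagen, was lowest in nESCs at 1.46 and 1.21 FPKM, against 4.11 to 5.08 FPKM in the pXEN lines and 5.57 and 6.97 FPKM in the pESC lines. The COL7A1 row overlaps an unnamed row on the same strand, with which it may share reads. COL8A1 and COL8A2, network collagens, were both called higher in pXEN cells than in nESCs, and COL8A2, at 0 counts in both nESC lines, was at least 5.11-fold higher.

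COL18A1 was the most abundant member in pXEN cells. Its product is the basement membrane collagen XVIII, the source of endostatin. It read 1939, 1070 and 1751 FPKM in pXEN lines 1, 2 and 3, 7.46 and 11.2 FPKM in the nESC lines and 263 and 319 FPKM in the pESC lines. The cell types did not overlap, and line 2 was at 0.555 times the mean of lines 1 and 3. The log2 fold change was 7.40 against nESCs (SE 0.37, edgeR adjusted p = 3.39e-06) and 2.45 against pESCs (SE 0.28, edgeR adjusted p = 0.00027), and pESCs exceeded nESCs by 4.95 (SE 0.34, edgeR adjusted p = 5.34e-05). The row spans 217835234 to 217887335 on chromosome 13 but counts only 1104 bases of exon, and an unnamed row for the same protein chain on that chromosome had 27901, 17616 and 26962 counts in the pXEN lines, 183 and 170 in the nESC lines and 5426 and 6313 in the pESC lines. Both rows were lower in line 2. All chromosome 13 genes with enough counts had a median of −0.451 for line 2 minus lines 1 and 3 on the log2 scale, against −0.019 over all chromosomes, and a median of 0.249 for pXEN cells minus nESCs, against −0.175. COL18A1, PLOD2, COL6A2, COL6A5, COL7A1, COL8A1, ADAMTS1, ADAMTS5, ADAMTS9 and TIMP4 lie there, and the part of these shifts in their values was not tested. Of the transmembrane collagens, COL13A1 had 1 count in all pXEN lines together and 8 to 22 counts in each ESC line, and COL23A1 had 11 to 56 counts per library.

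The collagen hydroxylases moved together, since edgeR called all 6 higher in pXEN cells than in nESCs and all 6 higher than in pESCs, with and without line 2. Of all genes, 28.3% were called higher against nESCs and 23.9% against pESCs with all lines. PLOD2, which hydroxylates lysines of the collagen telopeptides, read 291, 158 and 319 FPKM in the pXEN lines, 15.4 and 12.7 FPKM in the nESC lines and 17.3 and 18.7 FPKM in the pESC lines. The lowest pXEN line was thus clear of every ESC line, and the log2 fold change was 4.18 against nESCs (SE 0.32, edgeR adjusted p = 2.43e-05) and 3.84 against pESCs (SE 0.32, edgeR adjusted p = 5.32e-05). P4HA1, a catalytic subunit of prolyl hydroxylase, read 60.3, 75.8 and 83.7 FPKM in the pXEN lines, 11.4 and 9.94 FPKM in the nESC lines and 14.2 and 13.1 FPKM in the pESC lines. P4HA3 and P4HA2, its alternatives, were at 8.19 to 16.5 FPKM and 40.0 to 51.3 FPKM in the pXEN lines. P4HA2 differed between the ESC types, at 20.8 and 15.7 FPKM in nESCs and 7.44 and 8.46 FPKM in pESCs (log2 fold change of pESCs against nESCs −1.21, SE 0.18, edgeR adjusted p = 0.00213). PLOD1 and PLOD3 showed the smallest differences of the 6 between pXEN cells and either ESC type, with means of 30.9 ± 2.62 and 24.0 ± 0.931 FPKM in pXEN cells (SD, n = 3), 18.0 ± 1.98 and 11.7 ± 2.27 FPKM in nESCs (SD, n = 2) and 12.7 ± 0.551 and 7.77 ± 0.205 FPKM in pESCs (SD, n = 2). Both were also lower in pESCs than in nESCs, with log2 fold changes of −0.52 and −0.60 (edgeR adjusted p = 0.021 and 0.0245). In pESCs against nESCs, with all lines in the fit, none of the 6 was called higher with edgeR, none had an unadjusted p below 0.05 in that direction and DESeq2 called 0, and the log2 fold changes of the 3 that were not called were 0.34 for P4HA1, 0.34 for PLOD2 and 0.57 for P4HA3. Without pXEN line 2 in the fit, PLOD2 was called higher in that comparison (0.34, edgeR adjusted p = 0.0404).

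**Figure D3:**
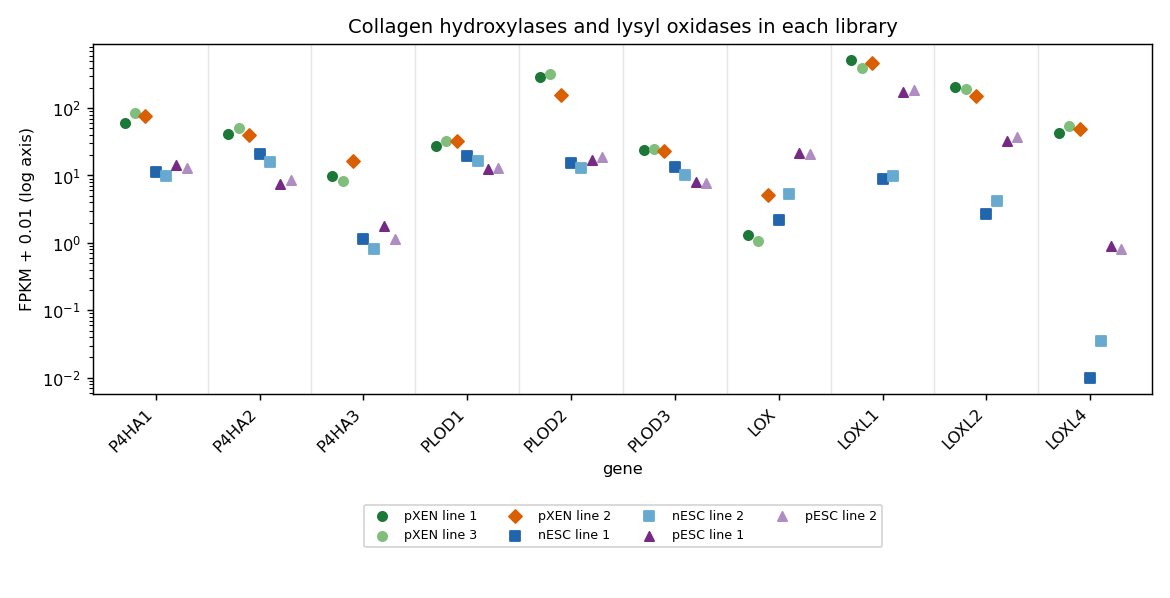
FPKM + 0.01 on a log axis for the 6 collagen hydroxylases and 4 lysyl oxidases, with 1 point per library and a value of 0 drawn at 0.01 (symbols as in the plot of the fibrillar collagens). The pXEN points lie above all ESC points for 9 of the 10 genes, and LOX is highest in the pESC lines.

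Of the 4 lysyl oxidases among the members, LOXL1, LOXL2 and LOXL4 were highest in pXEN cells and LOX in pESCs. LOXL3, on a row without a gene name and therefore not tested as a member, had fewer counts in every pXEN line than in any ESC line. LOXL1 read 520, 462 and 390 FPKM in the pXEN lines, 8.93 and 9.75 FPKM in the nESC lines and 174 and 186 FPKM in the pESC lines. LOXL2 read 205, 152 and 189 FPKM in the pXEN lines, 2.66 and 4.14 FPKM in the nESC lines and 32.0 and 36.8 FPKM in the pESC lines. The order pXEN, pESC, nESC held for both without overlap, and their log2 fold changes in pXEN cells were 5.61 and 5.73 against nESCs (SE 0.18 and 0.25, edgeR adjusted p = 5.4e-07 and 1.89e-06) and 1.36 and 2.41 against pESCs (SE 0.14 and 0.19, edgeR adjusted p = 0.000154 and 4.64e-05). LOXL4 had 1473, 1963 and 2103 counts in the pXEN lines, 0 and 1 in the nESC lines and 39 and 38 in the pESC lines. The ratio of pXEN cells to nESCs was 3558-fold, with a counting interval from 638 to 1.41e+05, and the log2 fold change against pESCs was 5.85 (SE 0.21, edgeR adjusted p = 2.11e-06). LOX, the founding member, was the exception, with 21, 98 and 19 counts in the pXEN lines, 43 and 103 in the nESC lines and 451 and 470 in the pESC lines. It was lower in pXEN cells than in pESCs (log2 fold change −3.07, SE 0.63, edgeR adjusted p = 0.00487), and line 2 was again above lines 1 and 3, at 4.22 times their mean. Against nESCs it was not called with line 2 (−0.57, SE 0.66, edgeR adjusted p = 0.497) and was lower without it (−1.68, edgeR adjusted p = 0.00889).

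Of the 5 membrane-anchored metalloproteinases, 3 were called higher and 1 lower in pXEN cells than in nESCs, beside 28.3% and 26.2% of all genes. Against pESCs, 3 were higher and 2 lower, beside 23.9% and 24.4%. MMP14, an activator of the MMP2 zymogen, had 5835, 4567 and 5747 counts in the pXEN lines, 57 and 97 in the nESC lines and 2179 and 2194 in the pESC lines. MMP15, a close relative, had 3303, 2218 and 4520 counts in the pXEN lines, 21 and 48 in the nESC lines and 705 and 771 in the pESC lines. Both kept the order pXEN, pESC, nESC without overlap, and MMP14 differed from nESCs by 6.27 on the log2 scale (SE 0.30, edgeR adjusted p = 2.94e-06) and from pESCs by 1.59 (SE 0.23, edgeR adjusted p = 0.000791), MMP15 by 6.74 and 2.48. MMP25, a glycolipid-anchored enzyme, was also called higher in pXEN cells than in either ESC type, at 75 to 92 counts against 16 to 26. MMP16 ran the other way, at 0, 7 and 0 counts in the pXEN lines, 162 and 168 in the nESC lines and 148 and 151 in the pESC lines. It was lower in pXEN cells than in nESCs (log2 fold change −5.95, SE 0.75, edgeR adjusted p = 0.000325) and than in pESCs (−5.66, SE 0.75, edgeR adjusted p = 0.000549), and all of its pXEN counts were in line 2. MMP17 was seen almost only in the pESC lines, with 228 and 211 counts against at most 4 in any other library.

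MMP2, the gelatinase that MMP14 activates, was lowest where MMP14 was highest. It read 25.5, 41.4 and 36.5 FPKM in the pXEN lines, 90.0 and 129 FPKM in the nESC lines and 73.0 and 75.1 FPKM in the pESC lines. No pXEN line reached an ESC line, and the differences were −1.67 against nESCs (SE 0.22, edgeR adjusted p = 0.000398) and −1.09 against pESCs (SE 0.22, edgeR adjusted p = 0.0042) on the log2 scale. MMP11 was at 20.6 to 22.4 FPKM in the pXEN lines, 16.4 and 15.5 FPKM in the nESC lines and 35.0 and 32.0 FPKM in the pESC lines. MMP19 had 208, 162 and 172 counts in the pXEN lines, 0 and 0 in the nESC lines and 52 and 75 in the pESC lines, at least 58.8-fold higher in pXEN cells than in nESCs. MMP9, the other gelatinase, had 13, 7 and 10 counts in the pXEN lines, 9 and 3 in the nESC lines and 1 and 2 in the pESC lines. It was called higher in pXEN cells than in pESCs (log2 fold change 2.93, edgeR adjusted p = 0.0191). From 3 counts in the pESC lines together the ratio was 7.2-fold, with a counting interval from 2.24 to 36.8. MMP9 lost that call without either pESC line, and did not pass the filter without pXEN line 2. The remaining 8 secreted MMPs form a cluster on chromosome 9 between 37133037 and 37504552, in the order MMP7, MMP20, MMP27, MMP8, MMP1, MMP3, MMP12 and MMP13, which holds the interstitial collagenases and stromelysin. All 8 failed the filter, and their counts summed to 6, 56 and 2 in pXEN lines 1, 2 and 3, to 0 and 0 in the nESC lines and to 2 and 5 in the pESC lines. Most of these reads were in line 2, where MMP7 had 30 counts and MMP13 had 13.

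Of the inhibitors, TIMP1 was lowest in pXEN cells and highest in pESCs. It read 2.60, 11.3 and 3.66 FPKM in the pXEN lines, 25.4 and 21.6 FPKM in the nESC lines and 53.4 and 62.0 FPKM in the pESC lines. Line 2 was the highest pXEN line and still below both nESC lines, and pXEN cells were lower than nESCs (log2 fold change −1.99, SE 0.50, edgeR adjusted p = 0.00999) and lower than pESCs (−3.27, SE 0.50, edgeR adjusted p = 0.00109). Without line 2 the log2 fold changes were −2.9 and −4.19. The TIMP1 row overlaps a gene on the other strand, SYN1, and the strand setting of the counting is not given in the sources used here. TIMP3, which binds to the matrix, was instead low in nESCs, at 0.798 and 1.99 FPKM, against 6.49, 17.2 and 5.11 FPKM in the pXEN lines and 10.7 and 14.5 FPKM in the pESC lines. TIMP4 had at most 17 counts in any library and was not tested. The TIMP2 inhibitor stands in the tables under the name TIMP-2, which the name rule does not take. It had 1108, 1240 and 958 counts in the pXEN lines, 1064 and 712 in the nESC lines and 444 and 387 in the pESC lines.

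**Figure D4:**
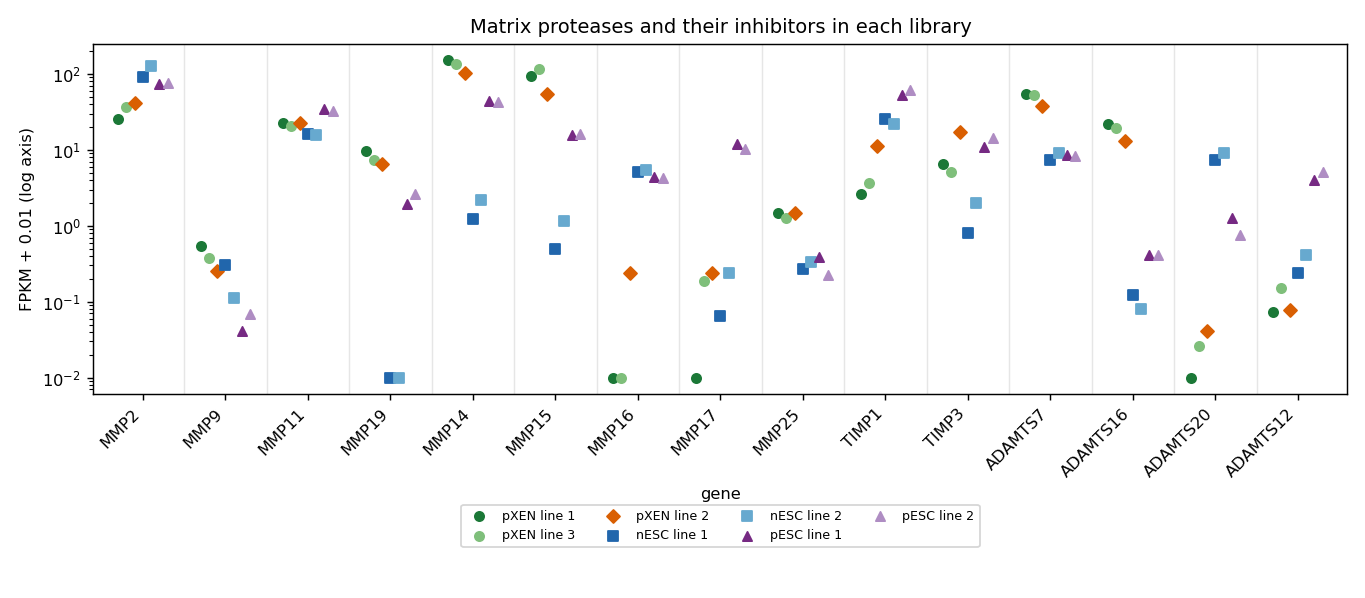
FPKM + 0.01 on a log axis for 9 MMPs, 2 TIMPs and 4 ADAMTS enzymes, with 1 point per library and a value of 0 drawn at 0.01 (symbols as in the plot of the fibrillar collagens). MMP14, MMP15, MMP19, ADAMTS7 and ADAMTS16 are highest in pXEN cells, MMP2 and ADAMTS20 in nESCs, and MMP17, TIMP1 and ADAMTS12 in pESCs.

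Of the 15 ADAMTS enzymes tested, 8 were called higher and 3 lower in pXEN cells than in nESCs (28.3% and 26.2% of all genes). Against pESCs, 3 of these enzymes were higher and 7 lower (23.9% and 24.4% of all genes). The one with the highest FPKM in pXEN cells was ADAMTS7, an enzyme known to cut cartilage oligomeric matrix protein, at 54.1, 38.0 and 51.9 FPKM, against 7.24 and 9.09 FPKM in the nESC lines and 8.49 and 8.32 FPKM in the pESC lines. The ESC types overlapped, with a difference of 0.03 on the log2 scale (SE 0.19), and pXEN cells exceeded nESCs by 2.55 (SE 0.19, edgeR adjusted p = 1.88e-05) and pESCs by 2.52 (SE 0.19, edgeR adjusted p = 3.18e-05). The row overlaps an unnamed row on the same strand, with which it may share reads. ADAMTS16 had 795, 555 and 780 counts in the pXEN lines, 5 and 3 in the nESC lines and 19 and 20 in the pESC lines, and its log2 fold change was 7.58 against nESCs (SE 0.37, edgeR adjusted p = 3.05e-06) and 5.47 against pESCs (SE 0.30, edgeR adjusted p = 8.17e-06). ADAMTS20, which cleaves proteoglycans, was highest in nESCs, with 0, 2 and 1 counts in the pXEN lines, 489 and 584 in the nESC lines and 86 and 56 in the pESC lines. From 3 counts in all pXEN lines together, nESCs were 557-fold higher with a counting interval from 190 to 2704, and pESCs were lower than nESCs (log2 fold change −3.06, SE 0.33, edgeR adjusted p = 0.000453). ADAMTS8 shared that order at lower counts, with 37 and 76 counts in the nESC lines, 4 and 16 in the pESC lines and at most 1 in a pXEN line. ADAMTS12 was highest in the pESCs, at 325 and 433 counts against 18 and 30 in the nESC lines and 4, 5 and 10 in the pXEN lines. Its row overlaps TARS and U6atac on the other strand, and the strand setting of the counting is not given. ADAMTS6, ADAMTS12 and ADAMTS16 lie on chromosome 16, where all genes with enough counts had a median of 0.489 for nESCs minus pESCs on the log2 scale, against 0.000 over all chromosomes, and of −0.783 for pXEN cells minus nESCs, against −0.175. The part of these shifts in their values was not tested. ADAMTS12 and ADAMTS16 were lower in nESCs than in pESCs, by log2 fold changes of 3.82 and 2.11 for pESCs against nESCs, and ADAMTS12 was called lower in pXEN cells than in nESCs (−1.77, edgeR adjusted p = 0.00842).

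The procollagen N-proteinases ADAMTS2, ADAMTS3 and ADAMTS14 were low in every library, at no more than 2.97 FPKM. ADAMTS2 had 28, 30 and 26 counts in the pXEN lines, 9 and 13 in the nESC lines and 77 and 88 in the pESC lines, and ADAMTS3 had 1 to 3 counts in every pXEN and nESC line and 33 and 24 in the pESC lines. Both were called lower in pXEN cells than in pESCs and higher in pESCs than in nESCs. The first call was lost for ADAMTS2 without either pESC line (edgeR adjusted p = 0.0607 and 0.0812), and the second for ADAMTS3 without any 1 of the ESC lines (0.0541 to 0.104). The aggrecanases ADAMTS1 and ADAMTS5, neighbours 72927 bases apart on chromosome 13, were both called higher in pXEN cells than in nESCs (log2 fold changes 2.18 and 2.39), though the call of ADAMTS5 was lost without nESC line 1 (edgeR adjusted p = 0.125), nESC line 2 (0.0505) or pXEN line 1 (0.0536). In line 2 they were at 0.457 and 0.284 times the mean CPM of lines 1 and 3, on the chromosome whose genes were shifted in line 2, as given for COL18A1, and the part of that shift in their values was not tested. The reference table gives the symbol ADAMTS1 to another row of chromosome 13, which has no gene name in the tables and had 314, 165 and 319 counts in the pXEN lines, 88 and 68 in the nESC lines and 54 and 93 in the pESC lines, so the row named ADAMTS1 may not be that gene. The row named ADAMTS1 had 59, 36 and 78, 15 and 13, and 8 and 10 counts in the same order. ADAMTS9 was highest in pESCs, at 284 and 376 counts against 43 to 96 in the other libraries, and ADAMTS4 had at most 9 counts anywhere.

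pXEN line 2 was compared with lines 1 and 3 as values only, because it is 1 library. A gene entered with at least 20 counts in line 2 or as the mean of lines 1 and 3, so line 2 alone could admit it. Of the 50 members that entered, 11 were at least 4 times as high in line 2 as the mean of lines 1 and 3. Of the 14296 genes that entered by the same rule, 2.20% were. On the low side, 1 member was at most 0.25 times, where 1.41% of genes were. The 11 were COL1A1, COL1A2, COL3A1, COL5A1, COL5A2, COL5A3, COL11A2, COL6A1, COL6A3, LOX and MMP7. They held 7 of the 9 fibrillar collagen rows that entered and none of the hydroxylases, TIMPs, membrane-bound MMPs or ADAMTS enzymes. COL5A1, COL5A3, COL11A2, COL6A1, COL6A3 and MMP7 entered through line 2 alone, so these counts rest in part on the rule of entry. The ratio was 54.3 for COL1A2 and 34.2 for COL3A1. That of COL6A1, 37.1, divides by a mean of 0.175 CPM from 0 and 4 counts in lines 1 and 3. This mean is below the floor of detection, so the rank of COL6A1 is uncertain. The 1 gene on the low side was ADAMTS10, at 374, 110 and 567 counts in lines 1, 2 and 3.

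Calls were therefore also made without line 2. In pXEN cells against nESCs, 38 of 61 members were then called higher and 13 lower (30.2% and 29.8% of all genes tested), and 5 members changed their call. COL1A2, COL9A1, LOX and ADAMTS15 became lower, and COL23A1 was no longer called. In pXEN cells against pESCs, 22 were called higher and 28 lower (26.5% and 28.9% of all genes), and 10 changed. COL1A2, COL5A1, COL5A2, COL6A1, COL26A1, TIMP3 and ADAMTS15 became lower, ADAMTS5 became higher, COL8A2 and ADAMTS13 were no longer called, and MMP9, higher with all lines, was no longer tested. Without line 2, 6 of the 10 fibrillar collagen rows were lower in pXEN cells than in pESCs, in place of 3, and COL3A1 alone was higher under both. In pESCs against nESCs, a comparison that uses no pXEN library but shares their estimate of spread, 41 were called higher and 7 lower (24.4% and 19.4% of all genes), and 8 changed, of which COL1A1, COL1A2, COL5A3, COL6A1, COL23A1, PLOD2 and TIMP1 became higher and MMP2 lower.

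With 2 lines in each ESC group, many calls rested on every line being present. Of the 48 members called in pXEN cells against nESCs, 17 lost their call under at least 1 alternative (adjusted p from 0.0503 to 0.24). COL1A1, COL11A1, TIMP1, TIMP3, ADAMTS2, ADAMTS6 and ADAMTS14 lost it without nESC line 1, and ADAMTS12 and MMP11 without nESC line 2. COL3A1, COL5A1, COL5A3, COL6A3, COL23A1, ADAMTS5 and ADAMTS10 lost it without either of them, and COL13A1 under limma at the larger pseudocount. Against pESCs, 10 of 45 lost it (adjusted p from 0.051 to 0.436). COL6A2 and COL13A1 lost it without pESC line 1, ADAMTS8 without pESC line 2 or pXEN line 3, and COL3A1, COL8A2, COL12A1, COL21A1, MMP9, ADAMTS2 and ADAMTS13 without either pESC line. The calls of COL8A2 and ADAMTS13 against pESCs were lost under 11 alternatives each. In pESCs against nESCs, 17 of 40 lost it (adjusted p from 0.051 to 0.318), each without at least 1 ESC line. They were COL5A1, COL5A2, COL8A1, COL8A2, COL9A1, COL11A1, COL12A1, PLOD1, PLOD3, LOX, TIMP3, ADAMTS3, ADAMTS6, ADAMTS8, ADAMTS10, ADAMTS13 and ADAMTS16. COL12A1 was also not called by DESeq2 in either comparison with pESCs.

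**Figure D5:**
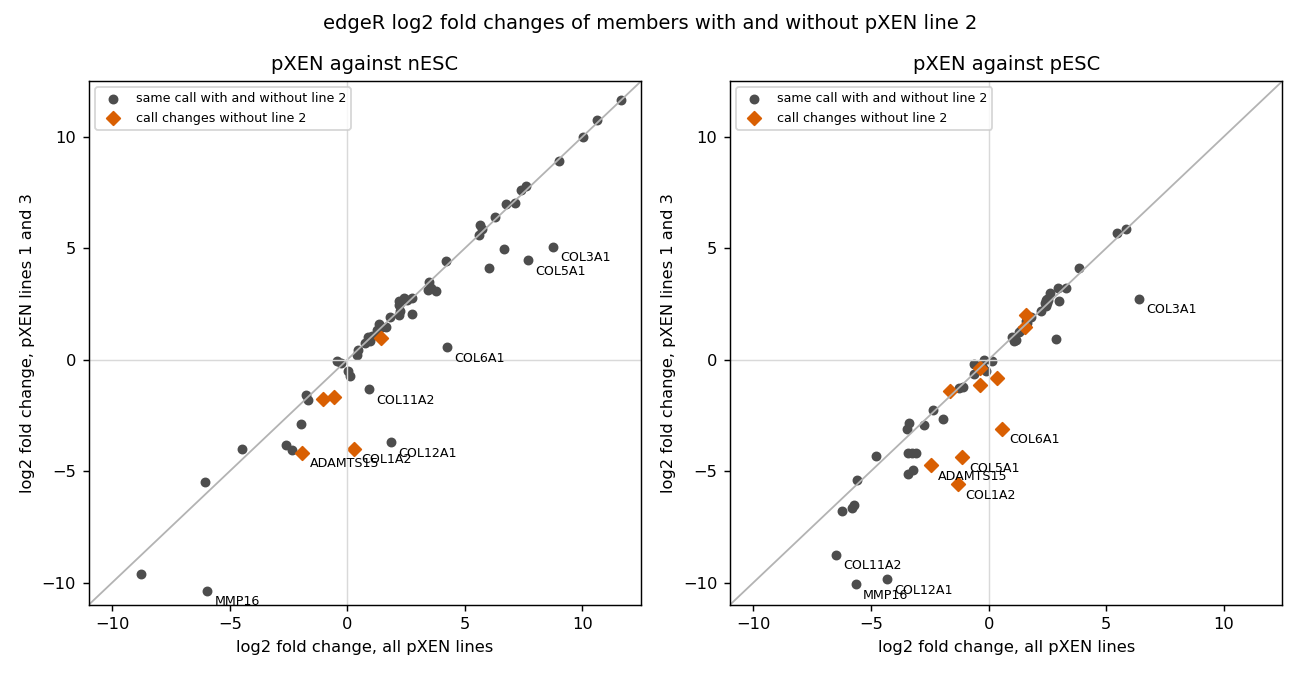
edgeR log2 fold changes of the members with all pXEN lines (horizontal axis) and with pXEN lines 1 and 3 only (vertical axis), against nESCs (left) and pESCs (right), with the diagonal of equal values (grey line). Orange diamonds are the 5 members on the left and 10 on the right whose call changes, and COL1A2, COL3A1, COL5A1 and COL6A1 lie well below the diagonal. Fitted values near the lower edge, such as those of MMP16, come from groups at or near 0 counts.

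Genes that act with these members were counted in lists by role. Of all genes tested, 28.3% were called higher and 26.2% lower in pXEN cells than in nESCs, or 30.2% and 29.8% without line 2. Against pESCs the shares were 23.9% and 24.4%, or 26.5% and 28.9% without line 2. Of 12 tested partners in collagen folding and secretion, 10 were called higher and 0 lower in pXEN cells against nESCs with edgeR (0 lower at an unadjusted p below 0.05 and 0 with DESeq2), and 6 higher and 1 lower against pESCs, or 8 and 1 without line 2. SERPINH1, the collagen chaperone HSP47, had 7118, 8865 and 7663 counts in the pXEN lines, 2588 and 2485 in the nESC lines and 2630 and 2893 in the pESC lines. Its log2 fold change was 1.77 against nESCs (SE 0.10, edgeR adjusted p = 5.22e-06) and 1.80 against pESCs (SE 0.10, edgeR adjusted p = 8.41e-06). Of 10 tested genes of procollagen processing and fibril assembly, 6 were higher and 2 lower in pXEN cells than in nESCs, and 4 higher and 2 lower than in pESCs, or 4 and 3 without line 2. FMOD, a small proteoglycan that binds collagen fibrils, had 444, 659 and 378 counts in the pXEN lines, 0 and 0 in the nESC lines and 8 and 12 in the pESC lines. DCN, another, was highest in pESCs, with 344 and 780 counts there, 1, 24 and 6 in the pXEN lines and 0 and 0 in the nESC lines. Of 13 tested regulators of matrix proteases, 9 were higher and 0 lower in pXEN cells than in nESCs with edgeR (0 lower at an unadjusted p below 0.05 and 0 with DESeq2), and 4 higher and 1 lower than in pESCs. Without line 2, PLAT became lower against nESCs (−0.61, edgeR adjusted p = 0.00211), and A2M (−3.06, edgeR adjusted p = 0.000106) and PLAU (−2.86, edgeR adjusted p = 0.000276) became lower against pESCs, so that 3 were lower there. A2M, a broad protease inhibitor, had 881 counts in line 2 against 36 and 36 in lines 1 and 3. FURIN, the convertase that activates MMP14 and several ADAMTS enzymes, had 8811, 8338 and 9773 counts in the pXEN lines, 42 and 32 in the nESC lines and 1472 and 1946 in the pESC lines. Its log2 fold change was 8.06 against nESCs (SE 0.22, edgeR adjusted p = 3.22e-07) and 2.69 against pESCs (SE 0.16, edgeR adjusted p = 1.12e-05).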

How the data were processed

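Porcine RNA was sequenced by the study from rRNA-depleted directional libraries, 1 per cell line. The authors deposited raw read counts per gene and FPKM per gene. The submitters' processing notes name HISAT2 2.0.5, featureCounts 1.5.0-p3, edgeR 3.22.5 and the build Sscrofa10.2, and the annotation release and strand setting are not given in the sources used here. For every library the deposited FPKM equals the deposited count divided by gene length and by 1 constant. Values of all 7 libraries, and no others, were read by column name.

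Members were found by gene name, and 60 of 76 identifiers carry the same symbol in the reference table while 16 are not in it. The members, their role groups and the lists of partner genes and fibroblast markers were chosen with earlier results of these data known. Counts were tested with edgeR 4.0.16 in R 4.3.3 (TMM scaling, filterByExpr, quasi-likelihood test, cell type as the only term, all 7 libraries in 1 fit, Benjamini-Hochberg adjustment over 17447 genes, calls at an adjusted p below 0.05), checked beforehand on simulated counts. The biological coefficient of variation between lines was 0.223. Ratios from 1 to 3 counts carry exact 95% intervals for counting error, and against groups at 0 counts a bound was taken at 3 counts per library. Values are given for members at a mean of 20 FPKM or more in a cell type, for up to 12 called members with the largest fold changes in each direction of each comparison among those at 1 FPKM or more, for those that set pXEN line 2 apart, and for a fixed set of collagens, enzymes and inhibitors. Some members beyond this rule (such as MMP25, COL7A1, COL8A1, COL13A1, ADAMTS2 and ADAMTS9) and the unnamed rows were named after their values were seen. Alternatives were upper-quartile scaling, DESeq2 size factors, other filters, DESeq2 1.42.0, limma 3.58.1 on log2(FPKM + 0.1) and log2(FPKM + 1), a replicate block, a fit of the groups compared alone, and leaving out each line.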

Additional observations from a re-analysis of the deposited data

How the results depend on the processing

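The counts of members called kept within 1.5 times of the reported ones under upper-quartile scaling, DESeq2 size factors, no filter, DESeq2, limma at both pseudocounts, the replicate block and the fit of the groups compared alone. A filter of at least 10 counts in every library, which removes genes near 0 in 1 cell type, left 30 members tested in place of 62. It gave 22 members higher and 3 lower in pXEN cells against nESCs (27.5% and 27.1% of all 12261 genes tested), 14 higher and 9 lower against pESCs (23.5% and 22.6%), and 18 higher and 4 lower in pESCs against nESCs (16.8% and 14.9%). Leaving out 1 line gave 27 to 39 higher and 7 to 13 lower in pXEN cells against nESCs, 19 to 23 higher and 17 to 28 lower against pESCs, and 21 to 41 higher and 2 to 7 lower in pESCs against nESCs. In the last comparison, leaving out any ESC line also gave fewer calls over all genes in both directions. The 41 higher came without pXEN line 2, where 24.4% of all genes were called higher in place of 19.0%. A cell type left with 1 library is assumed to vary like the others. With the replicate number as a block, the counts were 37 and 8, 21 and 19, and 34 and 6. The deviations of same-numbered lines from their group means had r from −0.008 to 0.037 over 6 pairs. With 2 lines in an ESC group the deviations mirror each other, so the 6 values are not independent. A shared origin of same-numbered lines was not tested. Upper-quartile scaling moved the median over all genes to −0.16, −0.09 and −0.06 on the log2 scale and left 37 higher and 10 lower members in pXEN cells against nESCs.

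Over the log2 fold changes of the members described and all alternatives, 2101 kept direction and call, 94 lost a call, 35 gained one and 29 turned direction, none of which was called among all lines. Of the calls lost, 22 were lost without nESC line 1, 16 without nESC line 2, 15 without pESC line 1, 16 without pESC line 2, 1 without pXEN line 1 and 3 without pXEN line 3. In pXEN cells against nESCs, the values that turned without pXEN line 2 were −3.70 for COL12A1, −1.34 for COL11A2, −3.99 for COL1A2, −0.74 for COL2A1 and −0.53 for MMP17. Under limma at the smaller and larger pseudocount they were −1.88 and −1.01 for COL1A2 and −0.10 and −0.01 for MMP17. Without nESC line 1 they were −0.04 for the COL1A2 row on the scaffold, −0.50 for COL2A1 and −0.66 for MMP17, and without nESC line 2 the value was 0.23 for LOX. Upper-quartile scaling gave −0.07 for COL2A1 and −0.14 for MMP17, the block −0.20 for MMP17, and the fit without pXEN line 3 −0.17 for MMP17. In pXEN cells against pESCs, the values without line 2 were −3.11 for COL6A1, −0.84 for COL5A2 and −0.04 for the COL1A2 scaffold row. Under limma they were −1.18 and −0.16 for COL6A1, and at the smaller pseudocount −0.07 for COL5A2 and −0.02 for the scaffold row, which was −0.33 with the block and −0.15 without pXEN line 3. In pESCs against nESCs, they were −0.18 for the scaffold row and −0.13 for ADAMTS7 without nESC line 1 and −0.06 for ADAMTS7 under upper-quartile scaling. Over all fits that left out 1 line, the highest value was 5.54 for COL12A1, 1.40 for COL11A2, 0.86 for COL1A2, 1.02 for its scaffold row, 1.11 for COL2A1 and 1.27 for MMP17, and the lowest −1.68 for LOX, in pXEN cells against nESCs. It was at most 1.13 for COL6A1, 0.55 for the scaffold row and 0.72 for COL5A2 against pESCs, and 0.87 for the scaffold row and 0.21 for ADAMTS7 in pESCs against nESCs. Beyond the line left out, the cause of these changes was not tested. With 2 or 3 lines per cell type and counts near the floor for many members, a difference that was not called may still exist.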

Other observations

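In all, 45 rows that the name rule does not take encode proteins of the same families, and they were examined after their values were seen, as values only. Rows for the α4 chain of collagen VI were seen in nESCs: one had 0, 0 and 2 counts in the pXEN lines, 314 and 211 in the nESC lines and 1 and 11 in the pESC lines, and another had 0, 0 and 0, 120 and 128, and 7 and 8 counts in the same order. In those nESC lines COL6A1 had 2 and 1 counts, COL6A2 14 and 17, and COL6A3 0 and 1. The 5 rows for collagen XV, a relative of collagen XVIII found in connective tissue, were at 13 to 30 counts each in pXEN line 2 and at no more than 4 in any other library. Collagen XV thus followed line 2, unlike COL18A1, which was lower there than in lines 1 and 3.

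LOXL3, the remaining lysyl oxidase, had 13, 33 and 15 counts in the pXEN lines, 80 and 130 in the nESC lines and 72 and 119 in the pESC lines. It was therefore lowest in the pXEN lines, where LOXL1, LOXL2 and LOXL4 were highest. The MMP23B row had 119, 217 and 121 counts in the pXEN lines, 25 and 8 in the nESC lines and 50 and 39 in the pESC lines. ADAMTS19, on its longest row, had 48, 115 and 78 counts in the pXEN lines, 17 and 22 in the nESC lines and 240 and 261 in the pESC lines, with pESCs highest.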
